A study of Mus musculus with 88 samples.

Results

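CC chemokines are small secreted proteins that draw leukocytes along a gradient, and they act through G protein-coupled receptors on the surface of those cells. In injured brain, microglia, astrocytes and blood vessel cells are known sources of the ligands, and blood monocytes are known carriers of the receptor Ccr2. The genes described here are the monocyte attractants Ccl2, Ccl7 and Ccl12, the inflammatory chemokines Ccl3, Ccl4 and Ccl5, and the receptors Ccr1 and Ccr2. All 8 were found by symbol among the 54532 genes of a count table from mouse cortex after controlled cortical impact. The list was made with earlier results of the same data known.

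The table covers 88 RNA libraries from 44 female and male C57BL/6 mice, 1 library per hemisphere. Mice were naive (13 animals) or were killed 24 h (15 animals) or 72 h (16 animals) after an impact to the right somatosensory cortex at 8 to 9 weeks of age. The injured mice had a 3 mm craniotomy, a 2 mm tip driven at 6.0 m/s to 1 mm depth for 100 ms, and buprenorphine at 0.05 mg/kg, so impact, surgery and analgesic cannot be told apart from one another in a comparison with naive mice. After perfusion, 4 mm punches were taken on the injured side (ipsilateral) and the opposite side (contralateral), and in naive mice the right punch carries the label ipsilateral. No mouse carried an engineered allele per the labels, and each library came from 1 animal. The ipsilateral library of male 72 h animal PM1 has contradictory labels and entered no comparison, which left 87 libraries. The ipsilateral library labelled female PF1 (72 h) carried Y-linked transcripts and almost no Xist, against its label (1071 reads of Ddx3y and 2 of Xist), while the contralateral one matched it. The ipsilateral library labelled PM1 held the mirror image, with 0 reads of Ddx3y and 7880 of Xist, and the contralateral one of PM1 matched its label. Whether these 2 ipsilateral libraries were exchanged was not tested. In comparisons of sides within animals, PF1 thus joins punches whose sex-linked transcripts differ. PF1 was kept as labelled, and results that change without it are said to do so. Fold changes are means over both sexes from edgeR's quasi-likelihood test with the labels' batch as a term, and a gene was called where its Benjamini-Hochberg adjusted p-value, taken over every gene in the fit, was under 0.05. Levels are given as CPM, the count of a gene scaled to the total of its library.

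Total counts ran from 10.605 to 26.36 M per library, with a median of 16.25 M. Summed over 7 neuron markers, naive ipsilateral punches held 6157 to 6927 CPM, so the tissue carried abundant neuronal RNA. Batch A held naive and 24 h animals, batch B animals of every time, and batch C 72 h animals alone, so 72 h and naive mice meet only in batch B. With the batch term, the 72 h side of fold changes over naive or 24 h thus rests chiefly on batch B libraries. Naive and 24 h libraries of batch A also enter these fits. On the injured side, the 72 h libraries of batch B that were compared were LM2, PM2, PF1, PF2 and LF3. Both libraries of female 72 h animal LF3, from batch B, stood apart. Their median correlation with the other libraries of their set was 0.843 (ipsilateral) and 0.844 (contralateral), against 0.952 for the next lowest library. In the ipsilateral LF3 library, genes with under 500 bp of exon sequence stood 2.92 log2 units above the median 72 h library, as a median over 18 protein-coding genes, and those of 500 to 1000 bp stood 1.50 units above over 223 genes. The other ipsilateral libraries ranged from -0.292 to 0.323 in all length classes. Ccl12 (537 bp), Ccl4 (660 bp), Ccl3 (766 bp), Ccl7 (801 bp) and Ccl5 (960 bp) fall in the 500 to 1000 bp class, and each had its highest 72 h value in LF3. Results at 72 h that lost or gained a call, or moved by over 1.5 times, without that library are therefore said to do so.

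**Figure D1:**
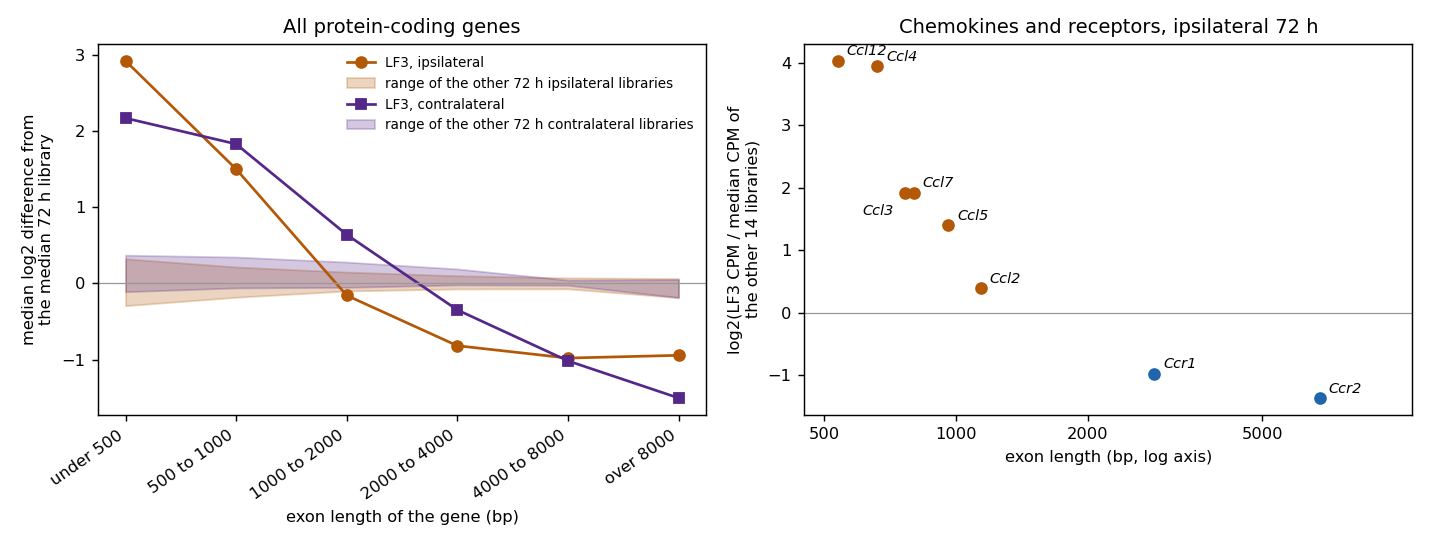
Left, median log2 difference from the median 72 h library (y axis) by exon length class (x axis, bp) for both LF3 libraries, with shaded ranges of the other 72 h libraries; right, log2 ratio of LF3 to the median of the other 14 ipsilateral 72 h libraries (y axis) for each of the 8 genes by exon length (x axis, bp, log). Ipsilateral LF3 stands at 2.92 in the shortest class against -0.292 to 0.323 in the others, and its ratio is 16.4 for Ccl12 and 0.387 for Ccr2.

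The 6 ligand genes lie on chromosome 11 and the 2 receptor genes on chromosome 9 (GENCODE M21, GRCm38). Ccl2 at chr11:82035571-82037453, Ccl7 at chr11:82045712-82047525 and Ccl12 at chr11:82101845-82103400 lie in that order on the plus strand, with Ccl11 between Ccl7 and Ccl12. Ccl5 at chr11:83525778-83530518 and Ccl3 at chr11:83647844-83649355 are on the minus strand, and Ccl4 at chr11:83662584-83664683 is on the plus strand. Ccr1 at chr9:123962124-123968692 is on the minus strand and Ccr2 at chr9:124101950-124113557 on the plus strand. Of 31-base words in the transcripts, 3.41% of those of Ccr2 and 0.642% of those of Ccr1 also occur in another gene, which for Ccr1 is chiefly Ccr3 (0.606%). For Ccl2, Ccl3, Ccl4, Ccl7 and Ccl12 the share was 0%, so these ligands can be told apart at that word length. Ccl2 overlaps Gm17268, and the strand used in counting is not given in the sources used here.

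All 8 genes rose in the injured cortex, and promoters are shown for the 4 of 8 that were matched in the RefSeq promoter table. Each line gives the 250 bases before the RefSeq start (GRCm38.p6), read 5′ to 3′ on the gene's own strand, and capitals mark matches to a searched motif.
Ccl12 (chr11:82101595-82101844, plus strand): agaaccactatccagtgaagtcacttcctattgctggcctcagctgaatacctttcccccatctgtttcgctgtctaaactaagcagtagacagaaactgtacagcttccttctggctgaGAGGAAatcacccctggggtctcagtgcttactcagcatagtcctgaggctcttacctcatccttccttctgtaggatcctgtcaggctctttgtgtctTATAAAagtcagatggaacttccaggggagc
Ccl3 (chr11:83649379-83649628, minus strand): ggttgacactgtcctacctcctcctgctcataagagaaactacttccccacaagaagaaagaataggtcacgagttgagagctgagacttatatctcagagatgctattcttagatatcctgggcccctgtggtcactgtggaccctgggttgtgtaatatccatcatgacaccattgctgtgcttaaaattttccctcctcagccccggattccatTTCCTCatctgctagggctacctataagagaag
Ccr1 (chr9:123968693-123968942, minus strand): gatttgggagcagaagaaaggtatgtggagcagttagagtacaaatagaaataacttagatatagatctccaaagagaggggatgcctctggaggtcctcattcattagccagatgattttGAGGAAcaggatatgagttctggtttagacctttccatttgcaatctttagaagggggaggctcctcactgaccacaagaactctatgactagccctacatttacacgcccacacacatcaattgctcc
Ccr2 (chr9:124101933-124102182, plus strand): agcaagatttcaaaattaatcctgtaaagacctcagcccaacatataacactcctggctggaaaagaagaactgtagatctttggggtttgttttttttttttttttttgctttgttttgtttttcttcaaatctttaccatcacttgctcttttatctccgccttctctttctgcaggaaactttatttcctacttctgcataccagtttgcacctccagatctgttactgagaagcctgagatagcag
Both strands were searched for the NF-kB site, TGANTCA (AP-1), TATAAA, GAAANNGAAA (interferon response) and GAGGAA (PU.1). GAGGAA was found in Ccl12 from -130 to -125 and in Ccr1 from -129 to -124, and on the other strand of Ccl3, where it reads TTCCTC, from -33 to -28. TATAAA was found in Ccl12 from -31 to -26. Among 32851 promoters of the same length, 23.3% hold GAGGAA, 12.4% TATAAA, 6.75% TGANTCA, 3.90% the NF-kB site and 2.98% GAAANNGAAA. No match was found in the Ccr2 window. That window lies mostly within the GENCODE gene, which starts at chr9:124101950, so it is not upstream of the start given above.

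Injured cortex carried more RNA of all 8 genes than naive cortex at both times, and for 7 of them the injured and naive libraries did not overlap. How many of all genes had groups that did not overlap was not counted. At 24 h after impact all 8 members were called higher, where 22.9% of the 19126 genes tested were. At 72 h all 8 were called higher too, with 27.8% of genes called higher, and likewise without LF3, with 25.7% called higher. The median log2 fold change over the members was 5.79 at 24 h and 6.48 at 72 h (5.31 without LF3), against 0.01 and 0.06 (-0.01 without LF3) over all genes tested. The same 13 naive libraries served both comparisons. In tissue punches, a change in the number of cells of a type and a change in RNA per cell cannot be told apart.

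**Figure D2:**
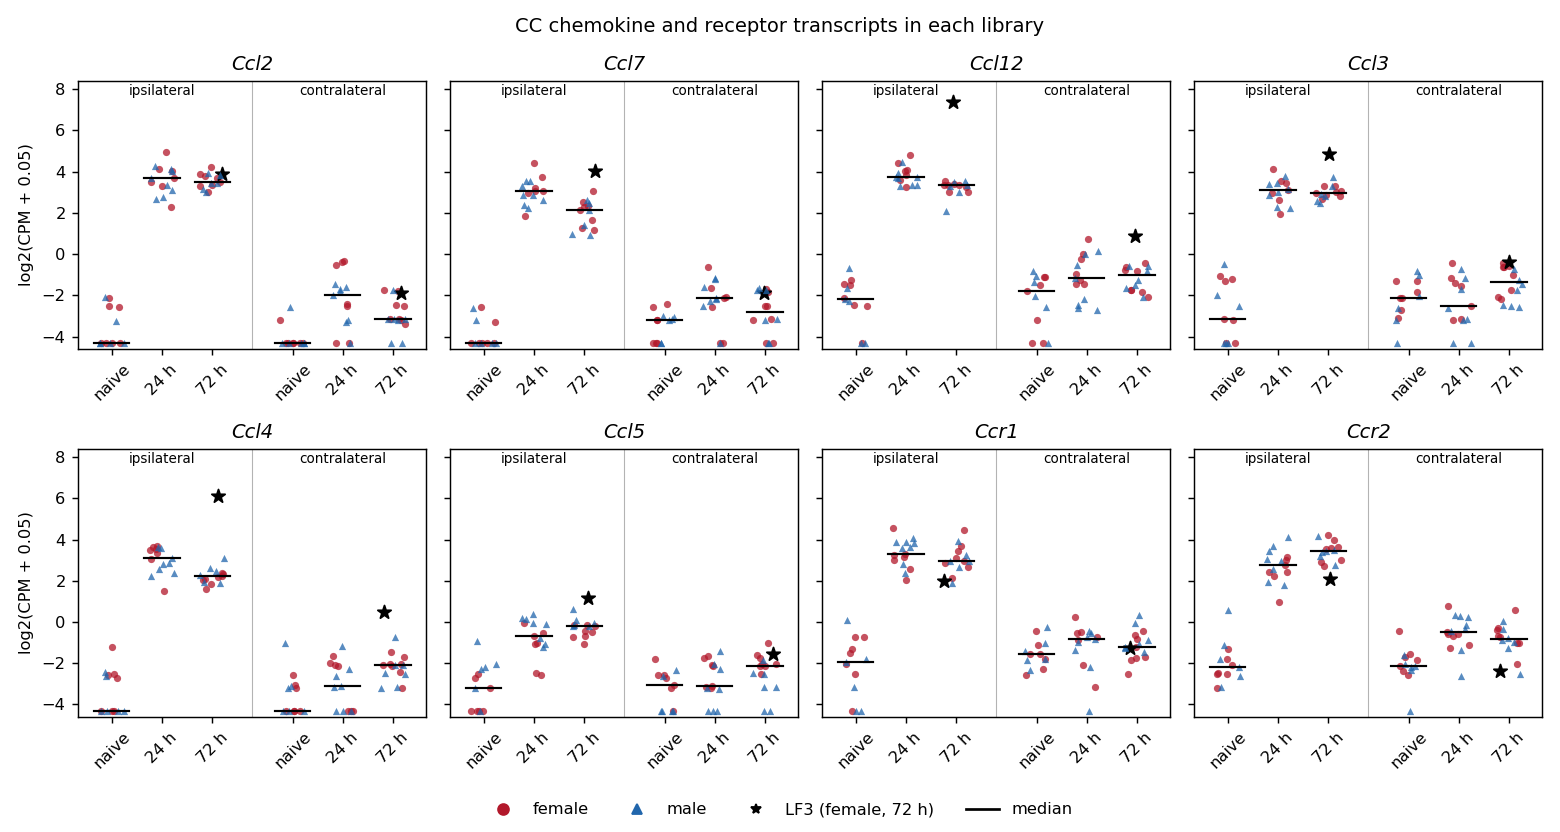
Level of each of the 8 genes in every library (y axis, log2 of CPM + 0.05) for naive, 24 h and 72 h mice, ipsilateral left and contralateral right; points are libraries of females (circles) and males (triangles), bars are medians, and stars mark LF3. Ipsilateral 24 h and 72 h libraries lie above all naive ipsilateral libraries for every gene except Ccl5.

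Ccl2, the main monocyte attractant acting on Ccr2, was nearly absent from naive cortex. It had 0 to 0.190 CPM in the 13 naive ipsilateral libraries (11 reads in all, and 8 libraries at 0), 4.88 to 31.1 CPM (median 12.8) at 24 h and 7.92 to 18.8 CPM (median 11.3) at 72 h. Every injured library stood above every naive library, and the 24 h and 72 h ranges overlapped. Over naive, Ccl2 had a log2 fold change of 7.65 ± 0.35 (SE; adjusted p = 3.62e-21) at 24 h and 7.23 ± 0.43 (adjusted p = 2.22e-17) at 72 h, or 7.03 without LF3. With so few naive reads, small changes in the naive counts would shift these folds.

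Ccl7, a second monocyte attractant that binds Ccr2 and also Ccr1, had 0 to 0.119 CPM in naive libraries (6 reads in all), 3.51 to 21.5 CPM (median 8.20) at 24 h and 1.88 to 16.4 CPM (median 4.36) at 72 h. The highest 72 h value was that of LF3, and the next was 8.18 CPM. Groups of injured and naive mice were apart, and the 72 h median lay below the 24 h median. Its log2 fold change over naive was 7.79 ± 0.50 (adjusted p = 2.28e-16) at 24 h. At 72 h it was 6.99 ± 0.63 (adjusted p = 4.87e-12), and 6.03 without LF3.

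Ccl12, a mouse Ccr2 ligand whose gene lies downstream of Ccl7, had 0 to 0.570 CPM (median 0.171) in naive libraries, 9.58 to 27.8 CPM (median 13.3) at 24 h and 4.15 to 166.5 CPM (median 10.3) at 72 h. The top 72 h value belonged to LF3 and was 16.4 times the median of the other 72 h libraries, of which the highest had 11.6 CPM. No injured library fell within the naive range. The log2 fold change over naive was 6.10 ± 0.50 (adjusted p = 2.39e-13) at 24 h and 7.54 ± 0.62 (adjusted p = 4.23e-13) at 72 h, or 5.52 at 72 h without LF3.

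Ccl3, an early inflammatory chemokine that binds Ccr1, had 0 to 0.673 CPM (median 0.0617) in naive libraries, 3.82 to 17.4 CPM (median 8.63) at 24 h and 5.47 to 28.8 CPM (median 7.75) at 72 h. The next value below LF3 at 72 h was 13.5 CPM. Injured and naive groups did not overlap, while the groups of both times did. Ccl3 had a log2 fold change of 5.48 ± 0.42 (adjusted p = 4.51e-14) at 24 h and 5.97 ± 0.54 (adjusted p = 4.94e-12) at 72 h, with 5.09 at 72 h without LF3.

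Ccl4, a close relative of Ccl3, had 0 to 0.379 CPM in naive libraries, of which 7 were at 0. At 24 h it had 2.82 to 12.9 CPM (median 8.54) and at 72 h 2.98 to 70.3 CPM (median 4.67). LF3 held the top 72 h value, and the other 72 h libraries reached 8.61 CPM. All injured libraries lay above the naive ones. The log2 fold change was 6.81 ± 0.60 (adjusted p = 2.28e-12) at 24 h and 7.95 ± 0.75 (adjusted p = 1.42e-11) at 72 h, or 5.78 at 72 h without LF3.

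Ccl5, an attractant of T cells and monocytes that binds Ccr1 and Ccr3, stayed scarce. It had 0 to 0.481 CPM (median 0.0603) in naive libraries, 0.116 to 1.25 CPM (median 0.580) at 24 h and 0.430 to 2.17 CPM (median 0.828) at 72 h. Its groups overlapped: 9 of 15 libraries at 24 h and 14 of 15 at 72 h exceeded the highest naive library. For Ccl5 the log2 fold change was 2.66 ± 0.42 (adjusted p = 1.36e-06) at 24 h and 3.62 ± 0.55 (adjusted p = 7.92e-07) at 72 h, or 3.01 without LF3.

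Ccr1, the receptor of Ccl3, Ccl5 and Ccl7 on monocytes and neutrophils, had 0 to 1.03 CPM (median 0.207) in naive libraries, 4.01 to 23.8 CPM (median 9.88) at 24 h and 3.70 to 22.1 CPM (median 7.76) at 72 h. Injured and naive libraries were apart. On the log2 scale Ccr1 rose by 5.19 ± 0.38 (adjusted p = 8.17e-15) at 24 h and 4.23 ± 0.50 (adjusted p = 2.96e-09) at 72 h, or 4.199 without LF3.

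Ccr2, the receptor that inflammatory monocytes use to leave the bone marrow, had 0.0603 to 1.44 CPM (median 0.169) in naive libraries, 1.94 to 17.7 CPM (median 6.83) at 24 h and 4.24 to 18.6 CPM (median 10.8) at 72 h. The naive maximum was below the lowest injured library. LF3 was the lowest 72 h library, and the next had 6.56 CPM. The log2 fold change was 4.63 ± 0.34 (adjusted p = 1.2e-14) at 24 h and 4.90 ± 0.44 (adjusted p = 4.17e-12) at 72 h, or 4.94 without LF3.

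Per exon length, the levels at 24 h could be set in order by their means. Ccl12 had the highest mean, at 28.0 ± 9.73 CPM per kb (SD, n = 15), and its range of mean ± SD just reached that of Ccl4. Ccl4 (13.3 ± 4.97 CPM per kb), Ccl2 (11.8 ± 5.84), Ccl3 (11.7 ± 4.76) and Ccl7 (11.3 ± 5.48) followed and did not differ from one another beyond their spread. Ccr1 averaged 3.93 ± 1.83 CPM per kb, Ccr2 1.10 ± 0.596 and Ccl5 0.681 ± 0.362, where the ranges of mean ± SD of Ccr2 and Ccl5 overlapped.

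Injury effects were also present within batches, though their values varied. At 24 h the log2 fold change of Ccr1 was 4.455 ± 0.378 in batch A and 7.845 ± 0.685 in batch B. For Ccr2 it was 4.11 ± 0.46 and 6.20 ± 0.43, and for Ccl2 8.51 ± 0.45 and 6.94 ± 0.58. Ccl3 and Ccl7 also had the larger value in batch B, and Ccl4, Ccl5 and Ccl12 in batch A. The main fit gives 1 value over batches, and a difference between batches was not tested. In batch A alone all 8 members were called higher at 24 h, with adjusted p of at most 0.00105, where 19.4% of genes were. In batch B alone all 8 were called higher at 24 h (adjusted p of at most 0.0266), where 13.1% of genes were, and at 72 h (at most 0.00327), where 19.4% were. The main 72 h comparison uses the same batch B libraries, so the 72 h result in batch B is not separate from it. Batch A libraries also enter the main fit, and its values were not those of batch B. In batch B alone, Ccr1 stood at 6.745 ± 0.713 at 72 h and Ccr2 at 6.34 ± 0.44, against 4.23 ± 0.50 and 4.90 ± 0.44 in the main fit. Ccl3 and Ccl7 were also larger in batch B alone, while Ccl2, Ccl4, Ccl5 and Ccl12 were smaller. Both sexes showed the rise: all 8 members were called higher in females and in males at 24 h, where 16.2% and 16.1% of genes were, and at 72 h, where 26.7% and 20.8% were. No member's injury effect was called different between females and males, with 0% of genes called at 24 h and 0% at 72 h by edgeR. Over all genes, 299 at 24 h and 580 at 72 h had an unadjusted p under 0.05, and DESeq2 called 1 gene at 24 h.

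Between 72 h and 24 h the members moved differently, and 1 library decided several directions. With all libraries, Ccl12 alone was called, as higher at 72 h, where 37% of genes were called in either direction. Its log2 difference was 1.44 (adjusted p = 0.0162), although its 72 h median was below its 24 h median. Without LF3 it was -0.57 (adjusted p = 0.0943), and Ccl7 (-1.75, adjusted p = 0.000173) and Ccl4 (-1.03, adjusted p = 0.013) were called lower at 72 h, with 33.2% of genes called. With LF3 kept, Ccl4 stood at 1.14 (adjusted p = 0.0909) and Ccl7 at -0.80 (adjusted p = 0.128).

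Ccl2 did not pass the test in either case, at -0.42 (adjusted p = 0.25) with LF3 and -0.62 (adjusted p = 0.0889) without. Neither did Ccl3 (0.49 with LF3, -0.38 without), Ccl5 (0.96 with, 0.35 without), Ccr1 (-0.96 with, -0.97 without) or Ccr2 (0.26 with, 0.32 without). Ccr1 was just over the threshold, and 11 of 43 fits that left out 1 library called it lower at 72 h. The 72 h range overlapped the 24 h range for each member. Batch bears on this comparison, since 10 of 16 animals at 72 h came from batch C, which has no other time. With the batch term, the 72 h values here thus come chiefly from batch B, LF3 among them. Without LF3 and without a batch term, 56.1% of genes were called. Ccl7 (-1.23), Ccl4 (-0.94) and Ccl12 (-0.74) were then lower at 72 h, and Ccr2 was higher (0.58, adjusted p = 0.0236). Within batch B, LF3 included, Ccr1 was the member called, at -1.10 (adjusted p = 0.0387), with 20.6% of genes called.

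**Figure D3:**
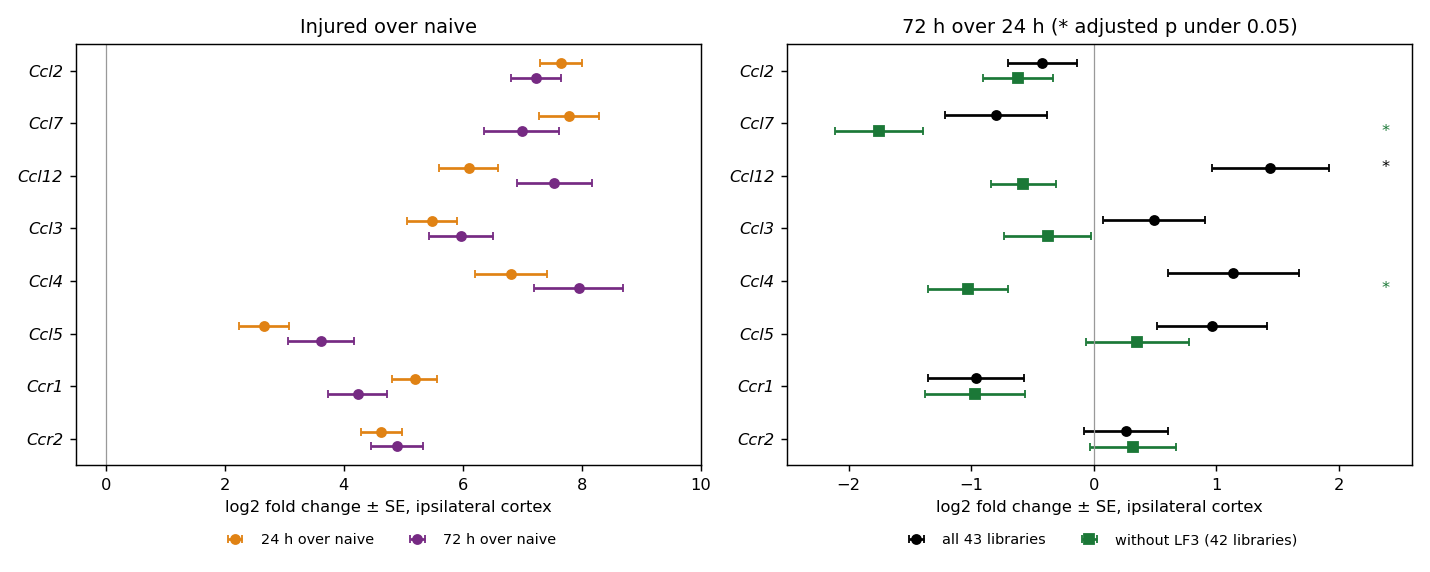
Log2 fold changes of the 8 genes in ipsilateral libraries (x axis, edgeR, bars ± SE): left, 24 h and 72 h over naive; right, 72 h over 24 h with all 43 libraries and without LF3, where asterisks mark an adjusted p under 0.05. All values over naive are above 0, while at 72 h over 24 h Ccl12 (1.44) and Ccl4 (1.14) lie below 0 once LF3 is left out (-0.57 and -1.03).

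The injured side also exceeded the opposite side of the same animals. With the animal as a block, all 8 members were called higher on the ipsilateral side at 24 h, where 23.7% of 19946 genes were, and at 72 h, where 31.1% were. Without LF3 all 8 were called at 72 h as well, with 33.6% of genes called higher. The log2 side difference at 24 h ran from 2.24 (Ccl5) to 6.22 (Ccl4), and at 72 h from 2.49 (Ccl5) to 6.74 (Ccl2), or 2.43 to 6.80 without LF3. Among the receptors, Ccr1 stood 4.47 ± 0.24 log2 units higher on the ipsilateral side at 24 h and 4.03 ± 0.25 at 72 h (adjusted p = 2.32e-20 and 5.96e-19). In all 15 animals at each time the ipsilateral CPM was above the contralateral CPM for every member, except Ccl5 in 1 animal at 24 h. Ipsilateral and contralateral groups did not overlap for any member but Ccl5, for which 13 of 15 ipsilateral libraries at 24 h and 14 of 15 at 72 h exceeded every contralateral library. How often the sides were apart over all genes was not counted.

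In naive mice no member was called between the right and the left punch. There, 0% of genes were called by edgeR, with 574 of them at an unadjusted p under 0.05. Ccl2 was higher in the right punch in 5 naive animals and equal in 8, and Ccr1 was higher in 4 and lower in 9.

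The side difference itself differed between 72 h and 24 h animals for a receptor and a ligand. Batch A has no 72 h animals, and most 72 h animals came from batch C, which has no other time. The animal block takes out shifts shared by both punches, but not a batch difference in the size of the side difference. Time and batch thus cannot be fully told apart here. It was larger at 72 h than at 24 h for Ccr2, by 1.01 ± 0.35 log2 units (adjusted p = 0.0197), and smaller for Ccl4, with a change of -1.31 ± 0.51 (adjusted p = 0.043). In this comparison 35.4% of genes were called in either direction. Leaving out animal LF3 gave 1.01 for Ccr2 (adjusted p = 0.0182) and -1.43 for Ccl4 (adjusted p = 0.0261), with 39.5% of genes called. The Ccl4 call was not stable: it was lost in 18 of 30 fits that left out 1 animal, with values of -1.68 to -1.17 and adjusted p of 0.00859 to 0.0887. These fits kept the genes and the dispersion trend (spread between libraries) of all animals, unlike the main fit. What that changes was not tested. Those 18 animals included LM2 (adjusted p = 0.0887) and the one labelled PF1 (-1.27, adjusted p = 0.0547). For Ccl2 the change was 1.03 (adjusted p = 0.0976), and it was called in 3 of the 30 fits and without the count filter (1.04, adjusted p = 0.0258), where 15.8% of genes were called. The Ccr2 call held in all 30 such fits, at 0.89 to 1.24 (adjusted p of 0.00451 to 0.0437). Behind the Ccr2 value stand side differences of 4.19 at 72 h and 3.18 at 24 h, and behind the Ccl4 value 4.91 at 72 h and 6.22 at 24 h.

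Contralateral punches held little RNA of the members at any time. There Ccr2 had 0 to 0.678 CPM (median 0.181) in 13 naive libraries, 0.113 to 1.65 CPM (median 0.674) in 15 libraries at 24 h and 0.124 to 1.44 CPM (median 0.515) in 16 at 72 h. These groups overlapped, with 6 of 15 libraries at 24 h and 5 of 16 at 72 h above the highest naive library. Ccr2 was called higher at 24 h, at 1.61 ± 0.35 log2 units over naive (adjusted p = 0.00693), where 0.819% of 18436 genes were called higher. Neither batch gave the call by itself: batch A alone gave 1.40 (adjusted p = 0.169), with 0.392% of genes called higher, and batch B alone 2.02 (adjusted p = 0.428), with 0% called. At 72 h no member was called, with 0.244% of genes called higher, and Ccr2 stood at 1.21 (adjusted p = 0.188).

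**Figure D4:**
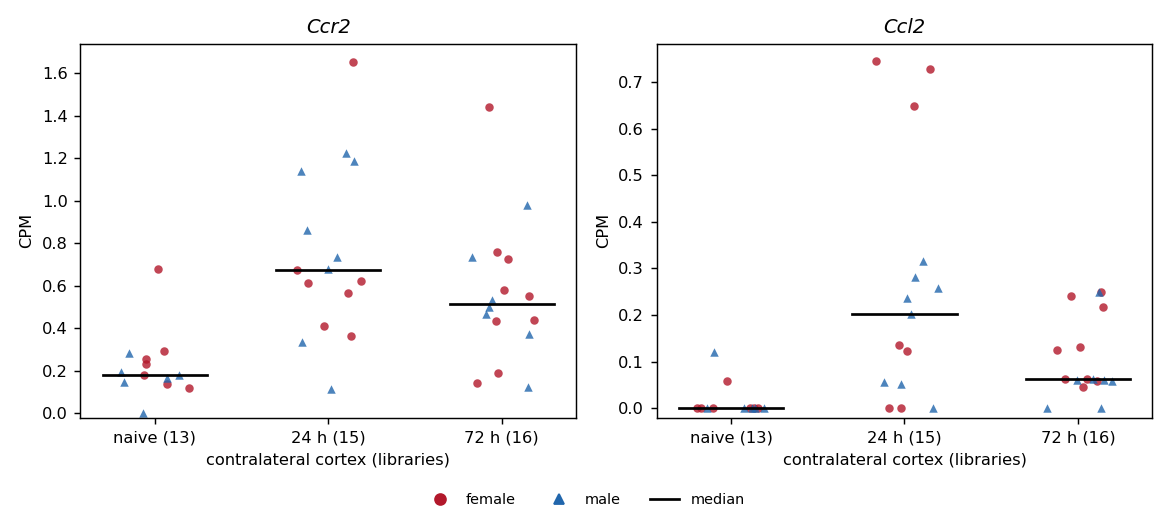
Contralateral level of Ccr2 (left) and Ccl2 (right; y axes, CPM) in naive, 24 h and 72 h mice; points are libraries of females (circles) and males (triangles) and bars are medians. The Ccr2 medians are 0.181, 0.674 and 0.515 CPM, the Ccl2 medians 0, 0.201 and 0.0628 CPM, and the groups overlap in both panels.

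Among ligands, Ccl12 passed the count filter on that side and was not called, at 1.16 (adjusted p = 0.237) at 24 h and 1.58 (adjusted p = 0.2) at 72 h, the second being 0.85 without LF3. Ccr1 stood at 0.28 (adjusted p = 0.781) and -0.003 (adjusted p = 0.999). The other 5 ligands had too few contralateral reads for the filter. Contralateral Ccl2 had 61 reads over 15 libraries at 24 h, of which 10 exceeded the highest naive library, against 3 reads over the 13 naive libraries. That is a pooled CPM ratio of 17.4, with an exact 95% counting interval of 5.69 to 86.9 that covers counting error only. At 72 h it had 27 reads over 16 libraries, a ratio of 7.29 (2.24 to 37.6).

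Without the count filter, where 0.238% of 37769 genes were called higher at 24 h, Ccl2 was called (adjusted p = 0.00326) and Ccl3, Ccl4, Ccl5 and Ccl7 were not. Contralateral Ccl7 had 0 to 0.595 CPM (median 0.177) at 24 h, against 0 to 0.139 CPM (median 0.0585) in naive mice. Of its 24 h libraries 10 of 15 exceeded the highest naive one, and the groups overlapped. The range of Ccl12 was 0 to 0.513 CPM in naive mice, 0.104 to 1.59 CPM at 24 h and 0.183 to 1.81 CPM at 72 h, and the last maximum was LF3. Contralateral Ccl3 reached 0.513 CPM in naive mice, 0.682 CPM at 24 h and 0.723 CPM at 72 h, and Ccl5 0.234, 0.322 and 0.437 CPM. Neither set of groups was apart. Ccl4 reached 0.447 CPM in naive mice, 0.395 CPM at 24 h and 1.37 CPM at 72 h, the last in LF3.

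Within an injury group, animals differed several-fold, and some members varied together. At 24 h the ipsilateral library of female RF1 was the highest for Ccl2, Ccl3, Ccl7 and Ccr1, and that of female FF3 was the lowest for every member except Ccl5. At 72 h female SF3 was the highest for Ccl2, Ccr1 and Ccr2. Over 29 injured ipsilateral libraries without LF3, each taken as its deviation from its group of sex and time, Pearson's r of log2 CPM was 0.841 for Ccl2 with Ccl7, 0.787 for Ccr1 with Ccr2, 0.782 for Ccl7 with Ccr1, 0.748 for Ccl3 with Ccr1, 0.746 for Ccl3 with Ccl4, 0.73 for Ccl2 with Ccr1 and 0.706 for Ccl7 with Ccr2. The other 21 of 28 pairs ran from -0.162 to 0.677. With LF3 in, over 30 libraries, these 7, in the same order, were 0.776, 0.808, 0.505, 0.422, 0.813, 0.667 and 0.398. For Ccl12 with Ccl4, r was 0.82 with LF3 and 0.348 without. Each point is 1 library, so members of a pair share its depth and composition. Batch was not taken out of the deviations, so shifts shared by a batch enter r as well, and no test was made.

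The genes whose deviations were most like those of each member over the 29 libraries were picked from 14477 genes, with batch again left in. For Ccr2 they were Ptprc (r = 0.892), the gene of the leukocyte surface phosphatase CD45, Lyz2 (0.888), a lysozyme of myeloid cells, and Pirb (0.886), a myeloid inhibitory receptor. For Ccr1 they were Thbs1 (0.938), Lilr4b (0.93) and Srgn (0.927). For Ccl2 they were Slc15a3 (0.824), Edn1 (0.796) and Fcgr1 (0.792), and for Ccl7 Slc15a3 (0.873), Scpep1 (0.841) and Il10rb (0.839). For Ccl3 they were Csf1 (0.825), the growth factor of macrophages and microglia, Ptafr (0.796) and Hcar2 (0.795). For Ccl12 they were Ebpl (0.769), Lyrm2 (0.76) and Limd2 (0.754), and for Ccl4 Casp4 (0.742), Zfp133-ps (0.739) and Wdcp (0.724). Ccl5, with few reads, reached 0.678 with Gm44053. With LF3 in, the first genes for Ccr1 (Thbs1, 0.94) and Ccl12 (Ebpl, 0.95) were the same, and those for Ccl2 (Edn1, 0.786), Ccl3 (Mreg, 0.812), Ccl4 (Tmem126a, 0.887), Ccl7 (Wfdc17, 0.844) and Ccr2 (Lyz2, 0.901) differed.

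Other genes of the CC family changed in the injured cortex too. Of 13 further CC chemokines, 9 passed the count filter and 5 were called higher at 24 h, where 22.9% of all genes tested were. They were Ccl6 (log2 fold change 3.67) and Ccl9 (3.58), rodent ligands of Ccr1, Ccl11 (4.67) and Ccl24 (4.23), attractants of eosinophils that bind Ccr3, and Ccl22 (2.49), a ligand of Ccr4. At 72 h, Ccl6 (4.29, and 3.59 without LF3), Ccl9 (3.06), Ccl11 (6.71), Ccl22 (1.75) and Ccl8 (4.90), a further monocyte attractant, were called higher. Ccl17 (-1.01) and Ccl25 (-0.48) were called lower.

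The Ccl8 call rests on LF3, which had 7.17 CPM against at most 1.68 CPM in the other 72 h libraries, and without LF3 the gene did not pass the count filter. Ccl11 had 0 to 0.190 CPM in naive libraries, 0.163 to 1.57 CPM at 24 h and 0.980 to 4.62 CPM at 72 h. It was higher at 72 h than at 24 h by 2.04 log2 units (adjusted p = 0.000327), and by 1.49 without LF3 (adjusted p = 0.00377). Ccl24 went the other way, at -3.29 (adjusted p = 0.00723), and -4.62 without LF3 (adjusted p = 0.00173).

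**Figure D5:**
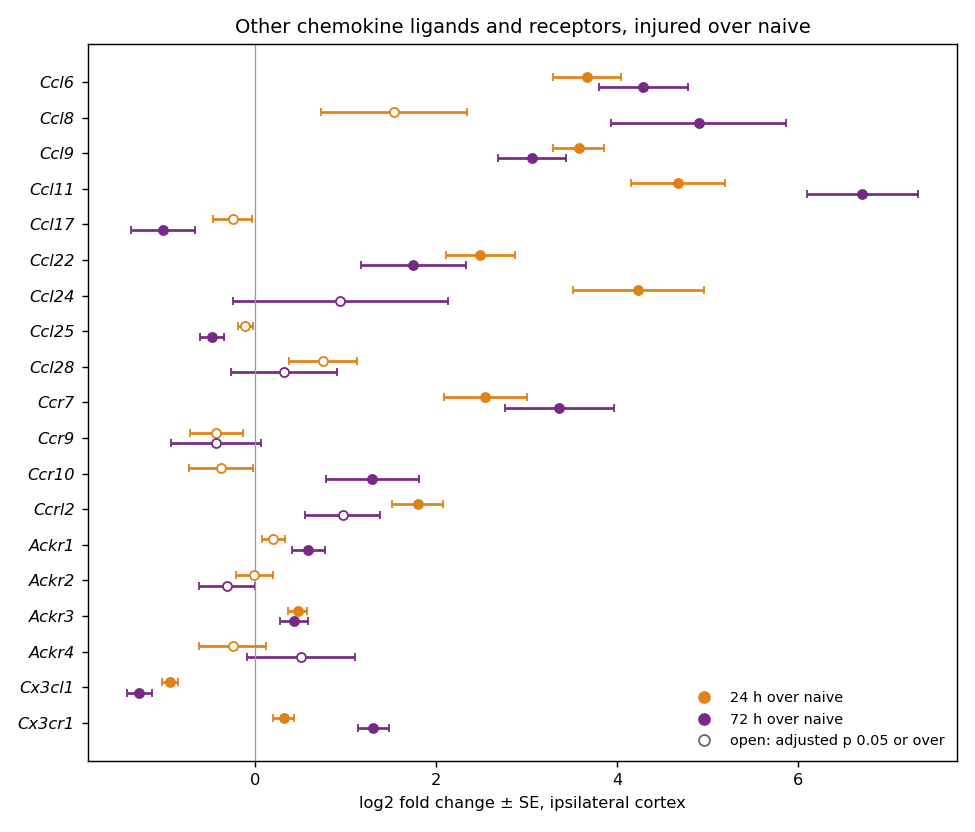
Log2 fold change over naive (x axis, ipsilateral libraries, edgeR, bars ± SE) of the other CC chemokines, CC receptors, atypical receptors and fractalkine genes that passed the count filter and are reported here, at 24 h and 72 h; open points have an adjusted p of 0.05 or over. Ccl11 stands at 4.67 at 24 h and 6.71 at 72 h, and Cx3cl1 at -0.94 and -1.28.

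Further CC receptors were also measured on the injured side. Ccr7, which leads dendritic cells to lymph nodes, rose by 2.54 at 24 h and 3.36 at 72 h. Ccrl2, a non-signalling receptor of chemerin, rose by 1.80 at 24 h and stood at 0.97 (adjusted p = 0.0529) at 72 h. Ccr10 was called higher at 72 h (1.29, adjusted p = 0.0348), but stood at 0.07 (adjusted p = 0.904) without LF3, and Ccr9 was not called.

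Of 4 atypical receptors, which bind chemokines without G protein signalling, Ackr3 rose by 0.47 at 24 h and 0.43 at 72 h. Ackr1 was called higher at 72 h (0.59) and not without LF3 (0.09, adjusted p = 0.512). Cx3cl1, the fractalkine gene of neurons, fell by 0.94 at 24 h and by 1.28 at 72 h. Its microglial receptor gene Cx3cr1 rose by 0.32 at 24 h and 1.31 at 72 h. On the contralateral side Ackr3 (-0.34, adjusted p = 0.00875) and Cx3cl1 (-0.49, adjusted p = 0.0286) were lower at 24 h. There, Ccl6 (2.02) and Ccl9 (1.24) were called higher at 72 h, and without LF3 they stood at 1.16 (adjusted p = 0.161) and 0.97 (adjusted p = 0.234).

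Genes listed as upstream of the chemokines also rose on the injured side, and a link between them was not tested. Beside the list counts here and below, 22.9% of the 19126 genes tested were called higher and 20.1% lower at 24 h. At 72 h these shares were 27.8% and 20.7%. All 12 listed cytokine, cytokine receptor and NF-kB genes were called higher at 24 h and 11 at 72 h (12 without LF3), with a median log2 fold change of 1.71 at 24 h and 1.51 at 72 h. Tnfrsf1a, a TNF receptor, rose by 2.52 and 2.70, Il1r1, the interleukin-1 receptor, by 1.92 and 2.11, and Nfkbiz, an NF-kB cofactor, by 1.80 and 1.40. Of 11 listed genes that carry signals from chemokine receptors, 9 rose and 2 fell at 24 h, and 10 rose and 1 fell at 72 h. Fgr, a kinase of myeloid cells, rose by 7.19 and 7.02, Rac2, a GTPase of leukocyte movement, by 2.33 and 3.53, and Dock2, its activator, by 1.55 and 3.24. Grk2, a kinase that desensitizes receptors, fell by 0.54 and by 0.70.

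Listed monocyte and macrophage markers had higher summed levels in injured than in naive cortex, with a higher median at 72 h than at 24 h. Whether these lists are confined to blood-derived cells was not tested. The median summed level of microglia markers was also higher at 72 h (1132 CPM) than at 24 h (281 CPM). The median summed level of the members was 70.9 CPM at 24 h and 60.1 CPM at 72 h (58.5 without LF3), while that of monocyte markers was 280 and 728 CPM and that of macrophage markers 145 and 574 CPM. Of 10 monocyte markers 9 were called higher at 24 h and 10 at 72 h, and their summed level was 94.3 to 173 CPM in naive libraries, 176 to 494 CPM at 24 h and 383 to 1417 CPM at 72 h. Ms4a6c rose by 3.09 log2 units at 24 h and 4.58 at 72 h, and Fn1, fibronectin, by 1.28 and 2.353. The defining marker Ly6c2 had a median of 0 CPM in naive libraries, 1.46 CPM at 24 h and 2.19 CPM at 72 h. Macrophage markers summed to 21.5 to 68.0 CPM in naive libraries, 74.7 to 285 CPM at 24 h and 190 to 1699 CPM at 72 h, with 5 of 8 called higher and 1 lower at 24 h and 6 higher at 72 h (7 without LF3). LF3 gave the 190 CPM, and without it the lowest 72 h library had 329 CPM, above the whole 24 h range. Cd68, a lysosomal protein of phagocytes, rose by 2.11 at 24 h and 4.13 at 72 h, Fcgr1, an antibody receptor, by 2.27 and 2.98, and Adgre1, the F4/80 antigen, by 0.51 and 3.22.

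Neutrophil markers summed to 5.75 to 23.0 CPM (median 8.89) in naive libraries, 29.8 to 669 CPM (median 73.1) at 24 h and 30.3 to 108 CPM (median 51.2) at 72 h. The 669 CPM was that of male DM2. Of the 9 tested, all were called higher at 24 h and 7 at 72 h (6 of 8 tested without LF3), and Ly6g was at 0 in every naive library. Cxcr2, the neutrophil chemokine receptor, rose by 7.69 at 24 h and 2.90 at 72 h, S100a9, a granulocyte calcium-binding protein, by 6.33 and 3.01, and Csf3r, the receptor of granulocyte growth factor, by 2.12 and 1.75.

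Microglia markers did not move with the members at 24 h. Of 8, 5 were called lower and 1 higher at 24 h, where 20.1% of all genes tested were lower and 22.9% higher. At 72 h 7 were called higher (8 without LF3), where 27.8% of genes were. Their summed level was 279 to 350 CPM in naive libraries, 220 to 333 CPM at 24 h and 337 to 1542 CPM at 72 h. The 337 CPM is LF3, and without it the lowest 72 h library had 839.6 CPM, above every naive and 24 h library. P2ry12, a receptor of resting microglia, fell by 2.09 log2 units at 24 h. Of 10 T and NK cell markers, 2 passed the filter, and neither was called at 24 h or 72 h. Mean levels of Cd3d, Cd3e and Cd3g were at most 0.131 CPM in any ipsilateral group. All 5 red cell markers rose at both times, with summed levels of 3.15 to 90.9 CPM in naive libraries, 30.3 to 590 CPM at 24 h and 70.7 to 509 CPM at 72 h. Of 7 astrocyte markers 2 rose and 4 fell at 24 h, and 3 rose (4 without LF3) and 2 fell at 72 h. Their median summed level was 5384 CPM in naive libraries, 4599 CPM at 24 h and 6126 CPM at 72 h. Gfap, the filament of reactive astrocytes, was among those that rose, by 4.09 and 5.07, and does not stand for the list. Endothelial markers were called higher for 2 of 6 and lower for 1 at 24 h and higher for 5 at 72 h, when Cldn5, a tight junction gene, rose by 1.71. Of 7 neuron markers 2 fell at 24 h, and 3 fell and 1 rose at 72 h (4 and 0 without LF3), and 3 of 6 oligodendrocyte markers rose at 24 h and 4 at 72 h (5 without LF3). The part of these cells in the chemokine and receptor values was not tested.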

How the data were processed

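The deposited file is a gene-by-library table of raw counts for 88 libraries of polyadenylated RNA. The submitters' processing notes name HISAT2 2.0.5 and the build mm10. Which program, annotation and strand setting produced the counts is not stated in the labels. Of 54532 genes, 54495 were matched to symbols in GENCODE M21, and 0 value columns went unused. Sex, time, side, animal and batch came from the labels. The ipsilateral library labelled PF1 expressed sex-linked transcripts that did not match its labels and was kept as labelled, with an alternative that left it out.

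From the deposited counts, CPM and log2 values were then calculated. edgeR 4.0.16 (limma 3.58.1, R 4.3.3) was run on 43 ipsilateral libraries (19126 genes, 35 residual degrees of freedom, common coefficient of variation 0.234) and on 44 contralateral libraries (18436 genes, 36, 0.213), with filterByExpr, TMM and a batch term. Sides were compared within 43 animals (86 libraries, 19946 genes, 37, 0.162), blocked by animal because the labels tie both punches to 1 animal. The test was the two-sided quasi-likelihood F test, with edgeR's default prior count and Benjamini-Hochberg adjustment over all genes tested. A prior count of 2 was used for the log2 CPM of the correlations between genes. Standard errors are the log2 fold change over the root of F. Nothing in the labels says that replicates were other than separate animals. Scripts were tested on simulated data.

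The members and gene lists were chosen with earlier results of these data known. Beyond the members, the rule named the 3 genes of each list with the smallest p over naive, every further chemokine gene tested, and the 3 genes most like each member; Ly6c2, Ly6g, the Cd3 genes and Grk2 were added after their values were seen. Alternatives were DESeq2 1.42.0, no count filter, no batch term, single batches and leaving out libraries; those without LF3 were chosen after seeing the data. Some genes that the rule names are not reported here. Protein sequences were not used here.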

Additional observations from a re-analysis of the deposited data

Results flagged for a closer look

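Within each group of sex, time and side, a library was marked where its gap to the nearest other library, over the group's range, exceeded Dixon's 95% critical value. Of 96 groups tested 26 were marked. The test's rate of 1 in 20 groups (4.8 of 96) assumes normally distributed values, which CPM near 0 are not, so it gives no measure of chance here. In naive female contralateral libraries, for example, Ccl2 had 1 read in all and 6 of 7 libraries at 0, so a mark was bound to follow. Of the 26 marks, 10 fell on naive libraries. LF3 accounted for 7, at 166.5 CPM for Ccl12, 70.3 for Ccl4, 28.8 for Ccl3, 16.4 for Ccl7 and 2.17 for Ccl5 on the ipsilateral side and 1.81 for Ccl12 and 1.37 for Ccl4 on the contralateral side. The rise of short transcripts in that library moves with these values; its part in them was not tested.

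At 24 h the ipsilateral libraries of female RF1 (Ccr1, 23.8 CPM) and male QM2 (Ccl12, 21.98 CPM) stood high, as did contralateral ones of RF1 (Ccr2, 1.65 CPM) and male DM2 (Ccl4, 0.395 CPM). At 72 h female SF3 (Ccr1, 22.1 CPM) and male SM2 (Ccl5, 1.49 CPM) were marked on the ipsilateral side. On the contralateral side at 72 h, female SF1 (Ccr2, 1.44 CPM), male PM1 (Ccl4, 0.551 CPM) and male LM2 (Ccl2, 0.248 CPM) were marked.

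Marked naive ipsilateral libraries were male EM3 (Ccr2, 1.44 CPM; Ccr1, 1.03 CPM), male CM1 (Ccl3, 0.673 CPM), female KF2 (Ccl4, 0.379 CPM), male KM2 (Ccl2, 0.190 CPM) and female CF2 (Ccl7, 0.119 CPM). EM3 also had the highest summed monocyte, macrophage and neutrophil markers of its group. Marked naive contralateral libraries were CF2 (Ccr2, 0.678 CPM), male EM2 (Ccl4, 0.446 CPM), KM2 (Ccl2, 0.120 CPM) and KF2 (Ccl2, 0.058 CPM). These naive values rest on few reads.

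The side difference differed between 72 h and 24 h, by the interaction test given above, for Ccr2 (1.01) and Ccl4 (-1.31). The ipsilateral library of animal PM1, which entered no comparison, held 12.4 CPM of Ccl2, 9.999 of Ccl12, 8.57 of Ccl3, 8.14 of Ccr2, 5.78 of Ccr1, 5.34 of Ccl4, 4.47 of Ccl7 and 0.497 of Ccl5, each above the highest naive ipsilateral library.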

How the results depend on the processing

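Averaged over both sexes, the calls of all 8 members over naive on the injured side held at both times under every alternative run. Within a sex, batch B alone lost Ccl5 at 24 h (females 2.28, adjusted p = 0.191; males 2.43, adjusted p = 0.159) and, in males, at 72 h (2.803, adjusted p = 0.0822). Leaving out LF3 turned Ccl4 at 72 h over 24 h to -1.03 (-1.06 also without PF1, -0.94 with no batch term) and Ccl12 to -0.57 (-0.52 and -0.74). In females these were -1.36, -1.41 and -1.30 for Ccl4 and -0.69, -0.62 and -0.88 for Ccl12; in males Ccl12 stood at -0.60 without LF3 and batch term. Leaving out single libraries gave -0.57 to 1.82 for Ccl12 (females -0.69 to 2.11) and -1.03 to 1.58 for Ccl4 (females -1.36 to 1.55). Members called at 72 h over 24 h numbered 1, and 2 with no batch term, without LF3, without PF1 or without both, 4 without LF3 and batch term, and 1 to 3 with single libraries left out (3 without LM2 or PF2). In females the number was 1, against 2 with DESeq2, 2 without LF3, 3 without PF1, 2 without both, 4 without LF3 and batch term, and 1 to 3; in males it was 0, against 1 with no batch term, 1 without LF3, 1 without both, 2 without LF3 and batch term, and 0 to 1.

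On the contralateral side 1 member was called at 24 h, 2 without the count filter, and 0 in batch A or B alone; at 72 h 0 were called, and 1 with no batch term. All genes called there at 24 h numbered 388, against 238 with no filter, 621 with DESeq2, 202 in batch A, 0 in batch B, 1190 without LF3, 719 without CM1 and 249 (without KM3) to 1190 over leave-outs. At 72 h they numbered 48, against 84 with DESeq2, 1456 with no batch term, 3 in batch B, 17 without LF3, 228 without PM1, 320 without PM2, 1193 without PF2, and 11 (without KF3) to 1253 (without PF1) over leave-outs. Batch B alone called 4297 genes at 24 h over naive and 3854 at 72 h over 24 h, where 10691 were called without LF3 and batch term. By sex it called 1693, 4187 and 2326 genes in females and 1445, 2997 and 1075 in males for 24 h over naive, 72 h over naive and 72 h over 24 h, and 7477 were called in males at 72 h over 24 h without LF3 and batch term. DESeq2 called 1 gene for the sex difference at 24 h, and no filter gave 17 between naive sides.

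With the animal as a block, 2 members had a side difference that was called different between 72 h and 24 h. With no replicate block 1 did, where Ccl4 stood at -0.86 (adjusted p = 0.437) and Ccr2 at 0.96 (adjusted p = 0.0457). The number was 1 without PF1, 3 with no count filter, and 1 to 2 over leave-outs. Per-animal leave-outs of the other side comparisons were not run. The few contralateral reads of 5 ligands limit what depth can show there. Causes were not tested.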
